A study of Mus musculus with 9 samples.

Results

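Granulosa cells are somatic cells of the ovarian follicle. The libraries described here show which transcripts were held by preparations labelled as granulosa cells, from mice that received no drug. The Control group held 3 of the 9 libraries of the study, chosen by their label, and these 3 alone (Control 1, Control 2 and Control 3) enter every value. They came from ovaries of female C57BL/6 mice of wild-type genotype; the labels call the group untreated, and the study's design text calls it a vehicle control. The sources used here do not give the age of the mice, the way the cells were isolated, or the number of mice behind each library. The cells were not cultured, and RNA was selected by its poly-A tail. Spread between the libraries may therefore be biological or technical, and with 1 group there is no contrast to test, so all values are descriptions with n = 3.

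In a growing follicle, granulosa cells surround the oocyte, respond to follicle-stimulating hormone (FSH) and secrete inhibins, activins and anti-Müllerian hormone (AMH). The transcription factor FOXL2 maintains their identity. After ovulation the cells turn into luteal cells, which make progesterone from cholesterol. A preparation taken from whole ovaries can carry theca, stroma, vessels, blood, oocytes and epithelium along with them.

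Levels are given in FPKM, a count of fragments scaled to gene length and library size, so that levels of different genes can be compared per length. The files of the Control libraries hold 56748 gene identifiers, of which 13611 reached a mean of at least 1 FPKM and 12502 reached 1 FPKM in each library. A further 28059 were at 0 in each. Among the 13611, the median was 7.17 FPKM, 5399 genes stood at 10 FPKM or more, 378 at 100 or more and 14 at 1000 or more. Reads recovered from the FPKM summed to 16849726, 17644228 and 16636148 in Control 1, 2 and 3. The library sizes that the FPKM imply were 16974621, 17943266 and 16485865. The sums include genes whose recovered value was not a whole read, so they are approximate, and that of Control 3 is above its library size. Between 2 libraries the reads of expressed genes with whole values differed by far more than sampling noise. The chi-square per degree of freedom was 70.1, 79.1 and 16.0 for the 3 pairs. Each library was 1 sample and was counted as 1 replicate.

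The 3 marker genes fixed for granulosa cells were present in each library. Inha (ENSMUSG00000032968), which encodes the alpha subunit of inhibin, stood at 4776, 2865 and 2944 FPKM in Control 1, 2 and 3, a mean of 3528 ± 1081 (SD, n = 3). It ranked 4 among all genes, first among those of the nuclear genome. Amh (ENSMUSG00000035262), the gene of AMH, stood at 379, 346 and 539.6 FPKM and ranked 50. Foxl2 (ENSMUSG00000050397) stood at 72.6, 85.3 and 92.1 FPKM and ranked 489. Inha was highest in Control 1, and Amh and Foxl2 were highest in Control 3.

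The 3 genes of highest level were transcripts of the mitochondrial genome. mt-Co1, a subunit of cytochrome c oxidase, stood at 18463, 16672 and 16026 FPKM and ranked first. mt-Cytb, the cytochrome b of complex III, stood at 6724, 5979 and 6911 FPKM, and mt-Nd1, a subunit of complex I, at 7741, 5393 and 6476 FPKM. The other mitochondrial genes in the first 15 were mt-Nd2, mt-Nd4, mt-Nd5, mt-Nd6 and mt-Tp, with means between 955 ± 267 and 2958 ± 399 FPKM.

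Steroid synthesis took 2 of the first 12 places. Hsd3b1, which converts pregnenolone to progesterone, stood at 4354, 2009.5 and 2499.7 FPKM and ranked 6. Cyp11a1, which cuts the side chain of cholesterol in the first step of the pathway, stood at 1319.5, 1089.8 and 1333 FPKM and ranked 12. The level of Hsd3b1 in Control 1 was above that in both other libraries, whereas the 3 values of Cyp11a1 lay close together.

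Several of the first 30 genes served translation. Eef1a1 and Eef2, the elongation factors that bring aminoacyl-tRNA to the ribosome and move it along, stood at 2073 ± 72.3 and 888 ± 47.9 FPKM. Tpt1, which encodes the translationally controlled tumour protein, stood at 497, 718 and 819 FPKM. The ribosomal proteins Rplp1, Rplp0, Rps3a1 and Rps15 had means of 1155 ± 213, 769 ± 47.8, 764 ± 37.2 and 607 ± 74.5 FPKM, and Cox6a1, a nuclear-encoded subunit of cytochrome c oxidase, had 632 ± 96.4 FPKM. Tpt1 was lowest and Rplp1 highest in Control 1, and the other values lay closer together.

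Genes of a lysosomal protein, a peptidase and a chaperone also stood among the first 30. Psap, the precursor of the saposins that activate lysosomal lipid breakdown, stood at 869, 1678 and 2182 FPKM and ranked 10. Cpe, a carboxypeptidase that trims peptide hormones, stood at 867, 850.3 and 875 FPKM. Hsp90ab1, a constitutive chaperone, stood at 738, 756 and 726 FPKM. Psap was lowest in Control 1, while the 3 values of Cpe and of Hsp90ab1 lay close together.

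Other members of the first 30 spread widely. Prss35, a secreted member of the serine protease family, stood at 269, 872 and 1036 FPKM, and Htra1, another secreted serine protease, at 458, 690.4 and 660.4 FPKM. Scd2, a fatty acid desaturase, stood at 888, 369.9 and 380.4 FPKM. Prss35 was low and Scd2 high in Control 1 alone. The beta-globin gene Hbb-bs stood at 235, 375 and 1489.7 FPKM and the alpha-globin gene Hba-a1 at 191, 353 and 1519 FPKM, both highest in Control 3. Akr1cl, an aldo-keto reductase, had a mean of 541 ± 82 FPKM. A further 2 of the 30, the identifiers ENSMUSG00000119584 at 1514 ± 167 FPKM and ENSMUSG00000118642 at 544 ± 111 FPKM, matched no symbol in the annotation used.

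**Figure D1:**
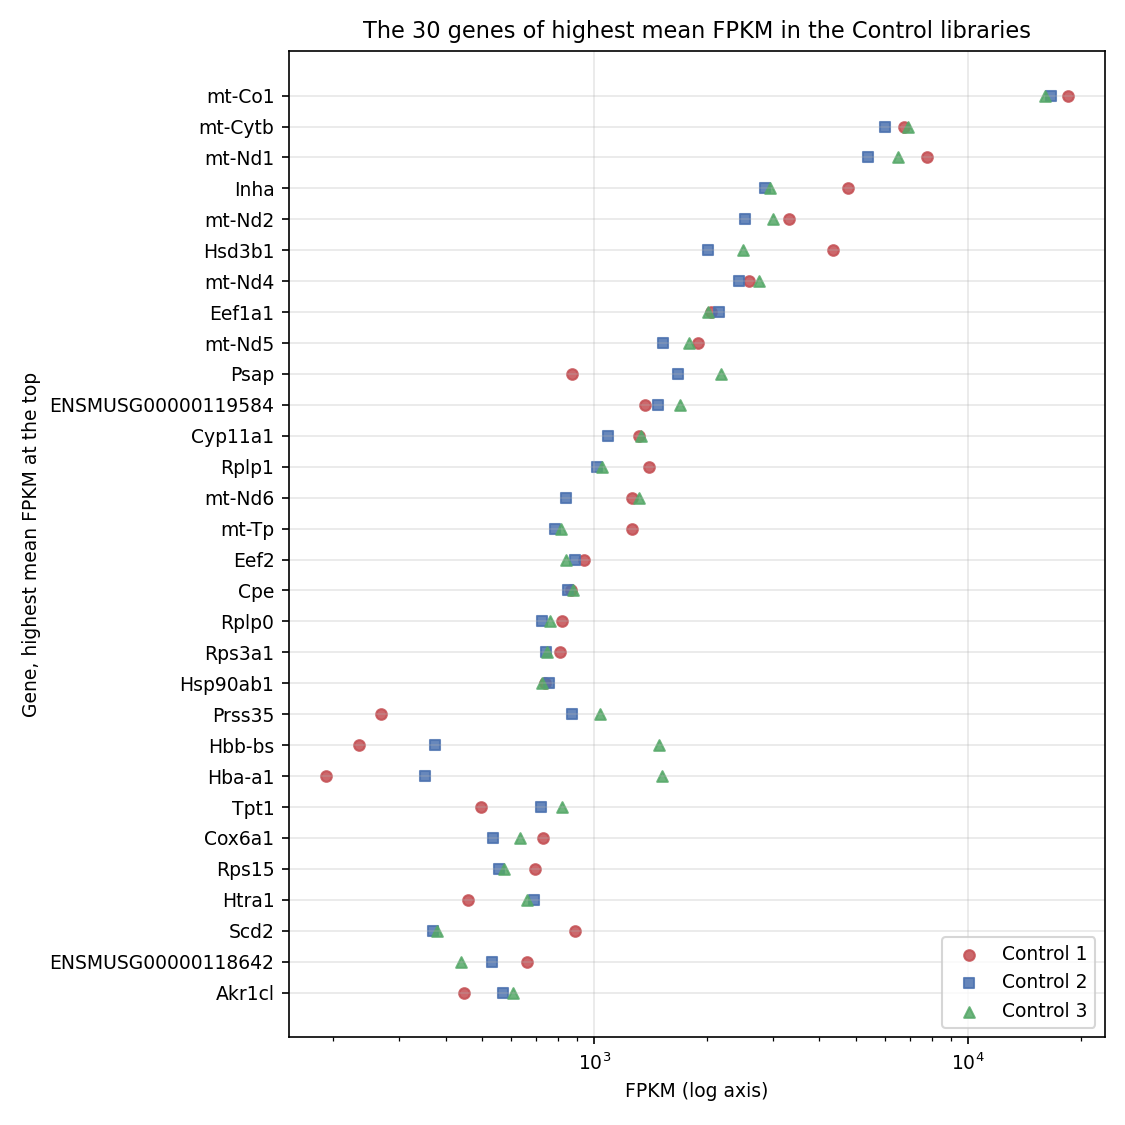
FPKM of the 30 genes of highest mean in Control 1, 2 and 3, on a log axis, with 1 point per library and the highest mean at the top. mt-Co1 lies between 16026 and 18463 FPKM in all 3 libraries, whereas Prss35, Hbb-bs, Hba-a1 and Scd2 are pulled apart by a single library.

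Expression was concentrated in few genes. The 10 genes of highest mean held 17.3, 15.0 and 15.3% of summed FPKM in Control 1, 2 and 3 (15.9 ± 1.25%), the first 100 held 29.9 ± 1.35% and the first 1000 held 57.6 ± 1.34%. Protein-coding genes numbered 11929 of the 13611 and took 93.8 ± 0.167% of summed FPKM. Processed pseudogenes, copies of mRNA that share sequence with their parent genes, took 2.4%. The lincRNA class took 0.427%, with 201 genes at 1 FPKM or more.

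The 13 protein genes of the mitochondrial genome formed the largest class, with 14.1, 12.5 and 12.8% of summed FPKM. In recovered reads, which are not scaled to length, their share was 5.59, 4.81 and 4.98%. Their levels were uneven. mt-Co1 stood at a mean of 17053 ± 1262 FPKM, but mt-Co2, another subunit of the same complex, stood at 265 ± 98.7 FPKM, mt-Atp6 at 223, 131 and 189 FPKM and mt-Nd3 at 123, 84.2 and 100.2 FPKM. mt-Atp8, a subunit of ATP synthase whose gene overlaps mt-Atp6, stood at 6.06, 1.91 and 13.1 FPKM from 21, 7 and 44 reads. The nuclear genome carries near-identical copies of parts of the mitochondrial genome, and how shared reads were counted is not recorded in the sources used here, so the single mitochondrial genes are uncertain.

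Ribosomal proteins were the second class, with 6.74, 5.71 and 5.8% of summed FPKM from 84 genes. Nuclear-encoded subunits of the respiratory chain took 2.07, 1.71 and 1.82% from 84 genes. Both shares were highest in Control 1. The steroid synthesis list took 2.31, 1.55 and 1.74% from only 15 genes, translation factors 1.56, 1.76 and 1.65%, and the cytoskeleton list 0.88, 0.898 and 0.822%. The haemoglobins, with 4 genes, took 0.153, 0.273 and 1.08%, so that this class was larger in Control 3 than in either other library. All other genes held 72.2, 75.6 and 74.3%.

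**Figure D2:**
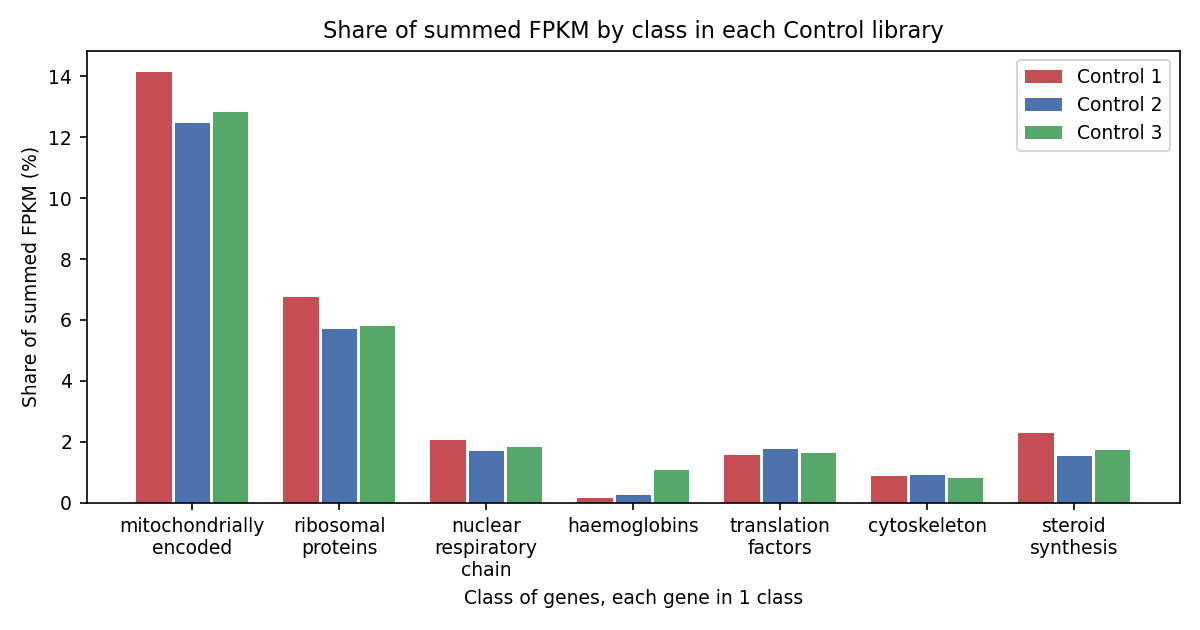
Share of summed FPKM (%) of 7 classes of genes in each Control library, with 1 bar per library and each gene in 1 class only. Mitochondrially encoded genes lead with 12.5 to 14.1%, and the haemoglobin bar of Control 3 stands at 1.08% against 0.153 and 0.273% in Control 1 and 2.

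All 21 genes of the granulosa identity list reached a mean of 1 FPKM, and 13 of them were among the 1000 most abundant genes. Their median was 79.3 FPKM, beside 7.17 FPKM over all expressed genes. Below Inha came Inhbb, the beta-B subunit of inhibin and activin, at 471, 336 and 511 FPKM, and Gja1, the connexin that joins granulosa cells to each other, at 439.9, 260.3 and 225 FPKM. Hsd17b1, which reduces oestrone to oestradiol, stood at 281, 301 and 263 FPKM. Its 3 values overlapped closely, while Gja1 was highest in Control 1.

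Receptors and regulators of the follicle were lower. Amhr2, the AMH receptor, stood at 107, 137 and 128 FPKM, and Fshr, which senses FSH, at 45.7, 25.6 and 29.9 FPKM. Fst, the gene of follistatin, which binds and blocks activin, stood at 123, 72 and 78 FPKM. Inhba, the beta-A subunit, had the widest range of the list at 113, 41.6 and 82.8 FPKM, lowest in Control 2. Cyp19a1, the aromatase that makes oestrogen, stood at 10.1, 5.0 and 10.5 FPKM and ranked 6069, below Hsd3b1, Cyp11a1 and Hsd17b1 in each library.

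Of 20 ligands and binding proteins of the TGF-beta family, 18 reached 1 FPKM. After Inha, Inhbb, Amh and Fst came Inhba and the oocyte ligands Gdf9 at 58.4 ± 15.3 and Bmp15 at 20.2 ± 5.29 FPKM. Grem1, a BMP antagonist, had the widest range of the list, at 5.68, 0.43 and 1.37 FPKM. Of 25 hormone and growth factor receptors, 24 reached 1 FPKM. The exception was Pgr, the progesterone receptor, at 0.145, 0.0196 and 0.0781 FPKM. The receptor of highest mean was Lhcgr, which binds luteinizing hormone, at 252, 84.6 and 113 FPKM, above Amhr2 in Control 1 but below it in Control 2 and 3. They were followed by Esr2, the oestrogen receptor beta, at 63, 55.3 and 24 FPKM, and by Tgfbr1, a type I receptor of TGF-beta, at 63, 31.9 and 35.2 FPKM.

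Among 24 transcription factors of the ovary, 22 reached 1 FPKM. Cited2, a transcriptional co-regulator, stood at 83, 215 and 258 FPKM and Nr5a2, the nuclear receptor LRH-1, at 116, 159 and 162 FPKM. Cebpb, a factor of the luteinizing response, stood at 50.7, 129.7 and 157 FPKM, and 20.7% of its exon bases are shared with another gene. Foxl2 followed. Runx1 had the widest range, at 4.74, 24.9 and 27.8 FPKM, and was lowest in Control 1. Sox9, which drives the Sertoli fate in the testis, stood at 0.898, 0.633 and 0.968 FPKM, and Dmrt1, another testis factor, had no read in any of the 3 libraries. A count of 0 allows up to 3 reads, which equal 0.0681, 0.0645 and 0.0702 FPKM for Dmrt1, for counting error only.

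Of 14 genes of the IGF system, 11 reached 1 FPKM, and those of highest mean encode binding proteins. Igfbp5, Igfbp7, Igfbp2 and Igfbp6 had means of 178 ± 36.4, 159 ± 87.7, 109 ± 5.66 and 88.9 ± 3.05 FPKM. Igfbp3 ranged most, at 13.5, 2.83 and 1.16 FPKM. Of the 17 basement membrane and matrix genes, all reached 1 FPKM, led by Sparc, a secreted collagen-binding protein, at 486, 460.0 and 538 FPKM and by the type IV collagens Col4a1 and Col4a2 at 131 ± 33.5 and 101 ± 30.3 FPKM. Lamb2, a laminin chain, had 90.5 ± 18.8 FPKM. Loxl2, which crosslinks collagen, stood at 18.7, 59.2 and 92.3 FPKM, lowest in Control 1.

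All 26 proliferation genes reached 1 FPKM, with a median of 16.2 FPKM and none among the first 1000. Ccnd2, the cyclin D of granulosa cells, stood at 30.4, 38.4 and 38.9 FPKM, Cdc20, an activator of the anaphase-promoting complex, at 32.9, 35.1 and 30.2 FPKM, Ccnb2, a mitotic cyclin, at 31.2, 34.5 and 30.5 FPKM and Pcna, the replication clamp, at 23.7, 28.1 and 31.9 FPKM. Rrm2, which supplies nucleotides for replication, ranged most at 9.57, 24.5 and 23.4 FPKM. In the list of apoptosis genes, 16 of 20 reached 1 FPKM. The anti-apoptotic Mcl1 and Bcl2l1 had 60 ± 2.9 and 16.9 ± 3.37 FPKM and the pro-apoptotic Bax and Bak1 52 ± 6.87 and 19.5 ± 1.6 FPKM, with no member spread at least 2-fold between libraries on the FPKM + 1 scale, beside 8.1% of all expressed genes. Bbc3, which encodes PUMA, ranged most at 2.72, 4.12 and 5.54 FPKM.

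Heat shock and antioxidant genes differed little between libraries in sum. The 11 heat shock genes summed to 2019, 2022 and 2047 FPKM, with Hspa8, Hspa5 and Hspd1 at 390.4 ± 32, 383 ± 17.5 and 234 ± 40.5 FPKM after Hsp90ab1. Of these 11 genes 8 were lowest in Control 1, beside 44.5% of all expressed genes. Hspa1b ranged most, at 3.68, 9.56 and 12.9 FPKM, and shares sequence with its near-identical copy Hspa1a. The 26 antioxidant genes summed to 2699.8, 2772 and 2646 FPKM, led by the secreted glutathione peroxidase Gpx3 at 523, 458 and 344 FPKM, the ferritin chains Ftl1 and Fth1 at 419.9 ± 54.2 and 237 ± 27.5 FPKM and the peroxiredoxin Prdx2 at 182 ± 28.1 FPKM. Gsta4, a glutathione transferase, ranged most in that list at 51.2, 22.8 and 39.3 FPKM.

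The cytoskeleton list summed to 2687, 2588 and 2508 FPKM and the MHC class I list to 714, 671 and 634 FPKM, both highest in Control 1. Actb, Actg1, Tubb5 and Tuba1b, the most abundant actins and tubulins, had 503 ± 63.8, 357 ± 24.9, 246 ± 41.1 and 194 ± 23.9 FPKM. Tuba1a stood apart from its list at 183, 42.1 and 38.3 FPKM, and it shares exon bases with another gene. That the cytoskeleton sum was highest in Control 1 rests on Tuba1a. As a share of summed FPKM the list was highest in Control 2, at 0.88, 0.898 and 0.822% in Control 1, 2 and 3. The MHC class I genes were led by B2m, the light chain, at 298, 238 and 224 FPKM, by the heavy chains H2-K1 and H2-D1 at 168 ± 4.69 and 127 ± 9.64 FPKM and by Tapbp, a loading factor, at 51.4 ± 6.18 FPKM. Psmb8, a subunit of the immunoproteasome, ranged most at 3.5, 5.64 and 5.51 FPKM. Of 17 interferon-stimulated genes 14 reached 1 FPKM, and the list summed to 429, 277 and 312 FPKM. It was led by Bst2, the membrane protein tetherin, at 373, 209 and 231 FPKM, which also ranged most. The next, Ifi27l2a, Ifi35 and Oasl2, stood at 26.4 ± 7.05, 9.3 ± 1.64 and 6.5 ± 1.09 FPKM. Bst2 held most of each sum, so the order of the sums is that of Bst2. Of the 14 genes, 10 were lowest in Control 1, beside 44.5% of all expressed genes.

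Markers of other cell types were measured in the same libraries, and 14 lists were read for them. In RNA from many cells at once, fewer cells of a type and less RNA per cell cannot be told apart. Theca cells, which lie outside the follicle's basement membrane, were represented by 4 of 8 markers at 1 FPKM or more. Aldh1a1, an enzyme of retinoic acid synthesis, stood at 143, 129 and 122 FPKM, Ptch1, the hedgehog receptor, at 9.92, 7.46 and 6.17 FPKM and Nr2f2, the nuclear receptor COUP-TFII, at 7.58, 6.47 and 7.28 FPKM. Cyp17a1, the theca enzyme of androgen synthesis, stood at 16.6, 0.584 and 0.986 FPKM from 780, 29 and 45 reads, so that Control 1 alone was above 1 FPKM. Insl3, a theca hormone, stood at 1.23, 0.716 and 0.195 FPKM.

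All 10 luteal markers reached 1 FPKM, 7 of them among the first 1000 genes. Besides Hsd3b1, Cyp11a1 and Lhcgr, these were led by Scarb1, the receptor that takes up cholesterol from lipoproteins, at 223, 151 and 171 FPKM. Star, which carries cholesterol into mitochondria, stood at 152, 148 and 141 FPKM, the most even of the list. Ptgfr, the receptor of the prostaglandin that ends luteal life, stood at 71.7, 8.86 and 7.71 FPKM and ranged most. Sfrp4, a secreted Wnt antagonist, stood at 266, 67.1 and 74.7 FPKM. In contrast Akr1c18, the enzyme that degrades progesterone, stood at 0.244, 5.77 and 7.74 FPKM, lowest in Control 1. Of the 10 markers, 7 were highest in Control 1, beside 36.4% of all expressed genes. Control 1 was at least 2-fold above both others for 3, beside 1.9%, and at least 2-fold below both for 2, beside 1.79%.

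Oocyte transcripts were present in each library. Of 15 oocyte genes, 13 reached 1 FPKM, and they summed to 394, 255 and 261 FPKM. Gdf9, a growth factor secreted by the oocyte, stood at 76, 48.5 and 50.6 FPKM, and Zp3 and Zp2, glycoproteins of its coat, at 73, 45 and 49.2 and 36.3, 22.2 and 25.7 FPKM. Padi6, a protein of the oocyte's cytoplasmic lattices, stood at 55.7, 34.4 and 35.6 FPKM. Zp1 ranged most, at 23.1, 13.8 and 13.9 FPKM. Control 1 was highest for 12 of the 13 genes, beside 36.4% of all expressed genes for which it was highest.

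Epithelial and stromal markers were also found. All 11 surface epithelium markers reached 1 FPKM and summed to 321, 285 and 372 FPKM. Control 3 was highest for 9 of them, beside 33.7% of all expressed genes, and Control 2 was lowest for 8, beside 28.1%. Krt19 and Krt8, keratins of simple epithelia, stood at 55.9, 48.1 and 67.6 and 38.5, 46.6 and 46.9 FPKM, Upk3b, a uroplakin of the mesothelial surface, at 49.1, 50.3 and 64.8 FPKM and Msln, mesothelin, at 36.7, 35.8 and 43.6 FPKM. Cdh1, the epithelial cadherin, ranged most at 15.9, 6.96 and 9.73 FPKM. All 11 fibroblast and stroma markers reached 1 FPKM and summed to 322, 268 and 264 FPKM. Col3a1, Col1a1 and Col1a2, the fibrillar collagens, had 72.2 ± 0.782, 51.7 ± 6.38 and 28.4 ± 8.4 FPKM and Mgp, a matrix protein, 43.6 ± 5.14 FPKM. Ogn, a small proteoglycan, ranged most at 22.5, 9.25 and 8.34 FPKM.

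Immune markers were low apart from those of macrophages. Of 12 macrophage markers, 11 reached 1 FPKM and the list summed to 224, 222 and 153 FPKM. Lyz2, lysozyme, stood at 95.4, 108 and 66.9 FPKM, and the complement genes C1qa, C1qb and C1qc at 29.7 ± 6.8, 26.2 ± 5.85 and 11.4 ± 1.7 FPKM. The widest range was that of Cd14, at 4.29, 2.38 and 1.68 FPKM. Control 3 was lowest for all 11, beside 27.3% of all expressed genes for which it was lowest. Lymphocyte and plasma cell markers reached 1 FPKM for 6 of 14, led by the immunoglobulin chains Igkc at 18.7, 24.5 and 11.5 and Ighm at 9.53, 14.5 and 7.37 FPKM. The granzymes Gzma and Gzmb stood at 3.05, 3.05 and 2.29 and 1.07, 3.92 and 0.929 FPKM, and Nkg7, a granule protein of cytotoxic cells, at 2.06, 4.21 and 1.46 FPKM. All 6 were highest in Control 2, Gzma by a margin too small to show at this rounding, beside 29.9% of all expressed genes.

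No neutrophil marker of 5 reached 1 FPKM. S100a9 and S100a8, calprotectin subunits, had means of 0.868 ± 0.461 and 0.672 ± 0.29 FPKM, Csf3r, a growth factor receptor, 0.545 ± 0.201 FPKM and Retnlg 0.0654 ± 0.0568 FPKM. Ly6g had no read in any of the 3 libraries, and 3 reads would equal 0.188, 0.177 and 0.193 FPKM. Of 5 Sertoli markers only Dhh, at 7.32 ± 1.1 FPKM, and Cldn11, at 4.85, 4.02 and 3.02 FPKM, reached 1 FPKM. Dhh is also a granulosa signal and stands in both lists. Rhox5 had 0.542 ± 0.228 FPKM.

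**Figure D3:**
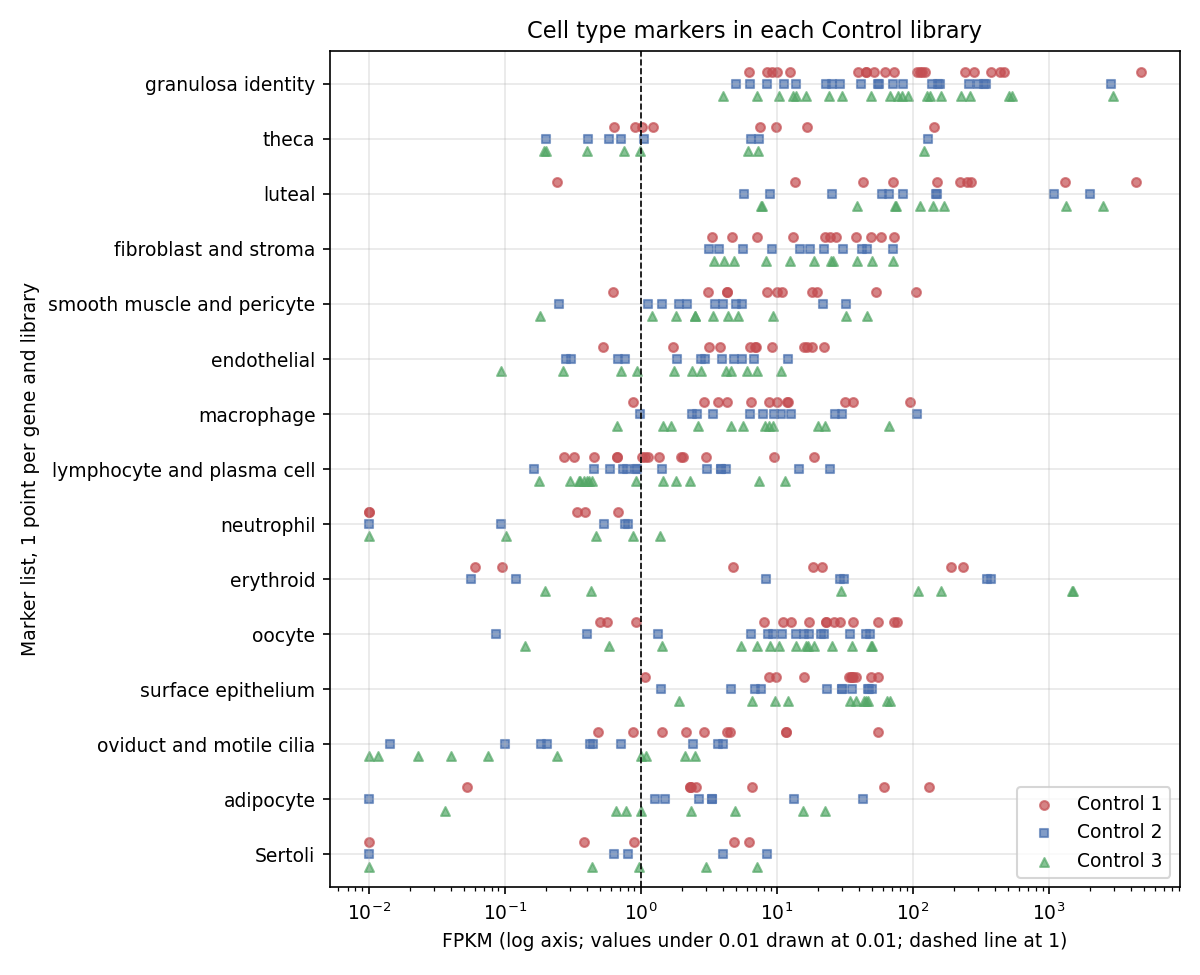
FPKM of each member of 15 cell type marker lists in each Control library, on a log axis with 1 point per gene and library and a dashed line at 1 FPKM. Granulosa identity genes lie between 4.06 and 4776 FPKM, neutrophil genes lie at or under 1.39 FPKM, and the oviduct and motile cilia points of Control 1 lie to the right of those of Control 2 and 3.

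The 3 libraries were not equally alike. On the log2(FPKM + 1) scale, Pearson's r across the 13611 expressed genes was 0.949 between Control 1 and 2, 0.944 between Control 1 and 3 and 0.98 between Control 2 and 3, and Spearman's rho was 0.944, 0.939 and 0.978. Genes are not independent replicates, and the 3 pairs share libraries. At least 2-fold apart on that scale were 741, 819 and 191 genes. Control 1 thus differed more from each of the others than they did from each other.

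For 1103 of the 13611 genes (8.1%) the highest library was at least 2-fold above the lowest on the FPKM + 1 scale. Without Control 1 the count was 202. Control 1 stood at least 2-fold above both others for 258 genes (1.9%) and at least 2-fold below both for 243 (1.79%). Control 2 did so for 37 (0.272%) and 42 (0.309%), and Control 3 for 41 (0.301%) and 27 genes (0.198%). The counts depend on the pseudocount and the minimum level, as given in the closing section.

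Spread between libraries exceeded that of counting at every level of expression. The median coefficient of variation was 23.2% for genes of 1 to 3 FPKM, where counting alone would give 9.8%. It was 11.2% for genes of 10 to 30 FPKM, where counting would give 2.99%, and 12.7% for genes of 300 FPKM or more, where counting would give 0.736%. The most even genes above 50 FPKM were Rpl3, a ribosomal protein, at 263, 264 and 263 FPKM, and Gabarap, an autophagy protein, at 80.6, 80.5 and 79.8 FPKM. They were followed by Dynlrb1, Maea, Mbd3, Rbbp7, Hsbp1, P4hb, Col3a1 and Eif3c, each with a coefficient of variation of 1.11% or less, beside a median of 12.1% over the 901 genes of that level. These were chosen for their small spread, so the values describe them only.

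Control 1 was the library with the most vessel, muscle and cilia transcripts. Endothelial markers summed to 112, 42.9 and 41.8 FPKM in Control 1, 2 and 3, and 10 of 12 reached a mean of 1 FPKM. Control 1 was highest for all 10, beside 36.4% of all expressed genes, and at least 2-fold above both others for 7, beside 1.9%. Cldn5, of the tight junctions of vessels, stood at 22.1, 5.59 and 6.08 FPKM, Cdh5, the endothelial cadherin, at 18.1, 6.83 and 7.19 FPKM, Eng, endoglin, at 15.8, 4.83 and 4.6 FPKM and Esam, an adhesion molecule, at 16.8, 12.1 and 10.7 FPKM. The levels of Control 2 and 3 lay close together for the first 3, and Control 1 stood clear of both. Tek and Emcn, also among the 7, reached the minimum through Control 1 alone.

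Smooth muscle and pericyte markers summed to 240.1, 79.3 and 109.6 FPKM. Of the 10 at a mean of 1 FPKM or more, all were highest in Control 1, beside 36.4% of all expressed genes, and 6 were at least 2-fold above both others, beside 1.9%. Acta2, smooth muscle actin, stood at 106, 32.3 and 46.4 FPKM, Myl9, a myosin light chain, at 54, 22 and 32.5 FPKM, Actg2, enteric smooth muscle actin, at 18.1, 5.51 and 9.43 FPKM and Mcam, a pericyte adhesion molecule, at 19.8, 5.01 and 5.16 FPKM. Rgs5, a pericyte marker, ranged most at 8.54, 1.43 and 1.83 FPKM. The eleventh, Tagln, stood under 1 FPKM at 0.622, 0.252 and 0.183 FPKM, and 67.9% of its exon bases are shared with another gene, so its reads may not have been assigned to it.

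Oviduct and motile cilia markers summed to 95.8, 12.2 and 7.11 FPKM. Ovgp1, the oviduct-specific glycoprotein, stood at 55.5, 4.01 and 1.0 FPKM from 3354, 256 and 59 reads, and Foxj1, the master regulator of motile cilia, at 11.7, 0.425 and 0.0231 FPKM from 523, 20 and 1 reads. Tppp3, a tubulin-binding protein, stood at 11.8, 3.68 and 2.1 FPKM and Rsph1, of the radial spokes, at 4.34, 2.44 and 2.52 FPKM. Of 10 members, 6 reached a mean of 1 FPKM, and Control 1 was at least 2-fold above both others for 5, beside 1.9% of all genes. Foxj1, Dynlrb2 and Tekt1 reached that mean through Control 1 alone, so their part of the count follows from the minimum. Whether cells of the oviduct, vessels or muscle contributed to other differences of Control 1 was not tested.

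Genes of fat storage also varied between the libraries. Plin4, which coats lipid droplets, stood at 131, 13.5 and 15.5 FPKM, Cfd, adipsin, at 62, 42.9 and 22.5 FPKM, Adipoq, adiponectin, at 6.57, 3.35 and 1.01 FPKM and Fabp4, a fatty acid carrier, at 2.34, 3.34 and 4.93 FPKM. Plin4 was high in Control 1 alone, Cfd and Adipoq were lowest in Control 3, and Fabp4 was highest in it. Plin4 was the only 1 of 7 members at 1 FPKM or more that was at least 2-fold above both others in Control 1, beside 1.9% of all expressed genes. Of the 7 members, 5 were highest in Control 1, beside 36.4%, and 5 were lowest in Control 3, beside 27.3%.

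Most genes of cholesterol synthesis were also highest in Control 1. The pathway builds sterols from acetyl-CoA through mevalonate and squalene, and its genes are known to be switched on together by SREBP2 when cellular sterol is low. All 22 members reached 1 FPKM, and 21 were highest in Control 1, beside 36.4% of all expressed genes. The exception was Dhcr7, the last reductase, at 45.5, 60.2 and 71.6 FPKM. For 5 members Control 1 was at least 2-fold above both others, beside 1.9% of all genes. The median difference of Control 1 from the mean of the others was 0.83 on the log2 scale, beside -0.04 over all expressed genes.

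Along the pathway, Hmgcs1, which makes HMG-CoA, stood at 128, 56.3 and 78.5 FPKM, and Mvk, the mevalonate kinase, at 25.9, 17.6 and 19.3 FPKM. Cyp51, which removes a methyl group from lanosterol, had the widest range at 69.1, 24.7 and 26.7 FPKM. Insig1, which holds SREBP2 in the endoplasmic reticulum, stood at 89, 42.9 and 46.2 FPKM. For each of these, Control 2 was the lowest library and Control 1 stood apart from both others. Fdps, which had 2.95, 2.62 and 2.8 FPKM, shares 26.7% of its exon bases with another gene and is uncertain.

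Promoter sequences, taken from RefSeq on the build GRCm38.p6, were read in the window of 250 bases before each gene's start, for both strands. Of the 22 cholesterol genes 15 had an entry, so the list is incomplete here. All 15 held CCAAT, the letters bound by the factor NF-Y, beside 40.3% of 9693 expressed genes with an entry and 37.5% of all 27025 genes. The proliferation list held it in 18 of 21. The following windows show CCAAT or its reverse complement ATTGG in capitals for 4 enzymes of the pathway. They were chosen to show how the letters lie close to the start, and each is only a part of the 250 bases. Hmgcs1, Mvk and Msmo1 hold further matches outside the part shown. The Hmgcs1 window is chr13:119690286-119690325 on the + strand, Mvk is chr5:114444139-114444264 on the + strand, Cyp51 is chr5:4104708-4104747 on the - strand and Msmo1 is chr8:64733619-64733688 on the - strand.
Hmgcs1: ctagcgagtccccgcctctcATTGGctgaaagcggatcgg
Mvk: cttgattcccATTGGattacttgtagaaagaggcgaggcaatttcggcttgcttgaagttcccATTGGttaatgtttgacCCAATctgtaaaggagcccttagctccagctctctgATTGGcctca
Cyp51: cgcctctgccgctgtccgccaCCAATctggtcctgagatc
Msmo1: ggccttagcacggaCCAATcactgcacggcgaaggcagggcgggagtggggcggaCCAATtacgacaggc

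Most glycolytic and hypoxia-responsive genes stood the other way round. Glycolysis turns glucose into pyruvate and lactate, and the factor HIF-1 is known to raise its genes when oxygen is low. All 21 members reached 1 FPKM, and 19 were lowest in Control 1, beside 44.5% of all expressed genes. Control 1 was at least 2-fold below both others for 6, beside 1.79% of all genes. Adm, the gene of the hormone adrenomedullin, stood at 4.4, 1.17 and 0.749 FPKM and went the other way, at least 2-fold above both others in Control 1. Egln3, an oxygen-sensing hydroxylase, was lowest in Control 2, at 2.46, 2.37 and 2.71 FPKM. The median difference of Control 1 was -0.88 on the log2 scale. The list summed to 955, 1767 and 2005 FPKM.

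Among the enzymes, Aldoa, aldolase, stood at 229, 366 and 404 FPKM, Pkm, pyruvate kinase, at 146, 212 and 237 FPKM, Pgam1, a phosphoglycerate mutase, at 112, 219 and 237 FPKM and Eno1, enolase, at 80.8, 217 and 241 FPKM. Ldha, lactate dehydrogenase, stood at 87.7, 209 and 240.2 FPKM and Pgk1, phosphoglycerate kinase, at 81.9, 174 and 197 FPKM. Bnip3, a mitophagy receptor, stood at 24, 88.5 and 107 FPKM. Control 2 and 3 lay near each other for all of these, with Control 1 below. Gapdh did not follow them: it stood at 3.85, 7.83 and 38 FPKM from 270, 581 and 2587 reads, far below its neighbours in the pathway. Gapdh has many near-identical pseudogene copies, and how reads shared with them were counted is not recorded in the sources used here, so its value is uncertain.

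Of these 21 genes 20 had a RefSeq promoter entry, and 12 held ACGTG, the core letters bound by HIF-1, on either strand, beside 25.1% of expressed genes with an entry and 18.5% of all. The following windows show 3 of the genes that were lowest in Control 1, with ACGTG or its reverse complement CACGT in capitals. Where matches on both strands overlap, the first is marked. Ldha is chr7:46845654-46845778 on the + strand, Pgk1 is chrX:106186940-106186984 on the + strand and Bnip3 is chr7:138909592-138909636 on the - strand.
Ldha: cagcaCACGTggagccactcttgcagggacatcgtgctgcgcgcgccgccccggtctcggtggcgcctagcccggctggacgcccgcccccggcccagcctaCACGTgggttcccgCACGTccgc
Pgk1: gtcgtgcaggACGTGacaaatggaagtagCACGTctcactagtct
Bnip3: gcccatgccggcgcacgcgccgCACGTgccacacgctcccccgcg

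All these letters, and AGGTCA, were chosen after the levels were known, and a match describes the window only. With TATAAA, the core of the TATA box, 4 strings were searched. TATAAA was held by 6 of the 16 granulosa identity genes with an entry and by 3 of 64 of the 100 most abundant genes, beside 7.75% of expressed genes and 14.3% of all. AGGTCA, the letters bound by nuclear receptors such as NR5A1 and NR5A2, was held by 6 of 16 granulosa identity genes, beside 12.8% of expressed genes. The ratio of observed to expected CpG had a median of 0.472 in the granulosa identity promoters and 0.754 in those of the 100 most abundant genes, beside 0.758 over expressed genes and 0.403 over all. AGGTCA lies close to the start of Cyp11a1, the second most abundant steroid enzyme, whose window is chr9:58014902-58014946 on the + strand, with AGGTCA in capitals.
Cyp11a1: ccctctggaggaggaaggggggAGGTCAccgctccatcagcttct

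**Figure D4:**
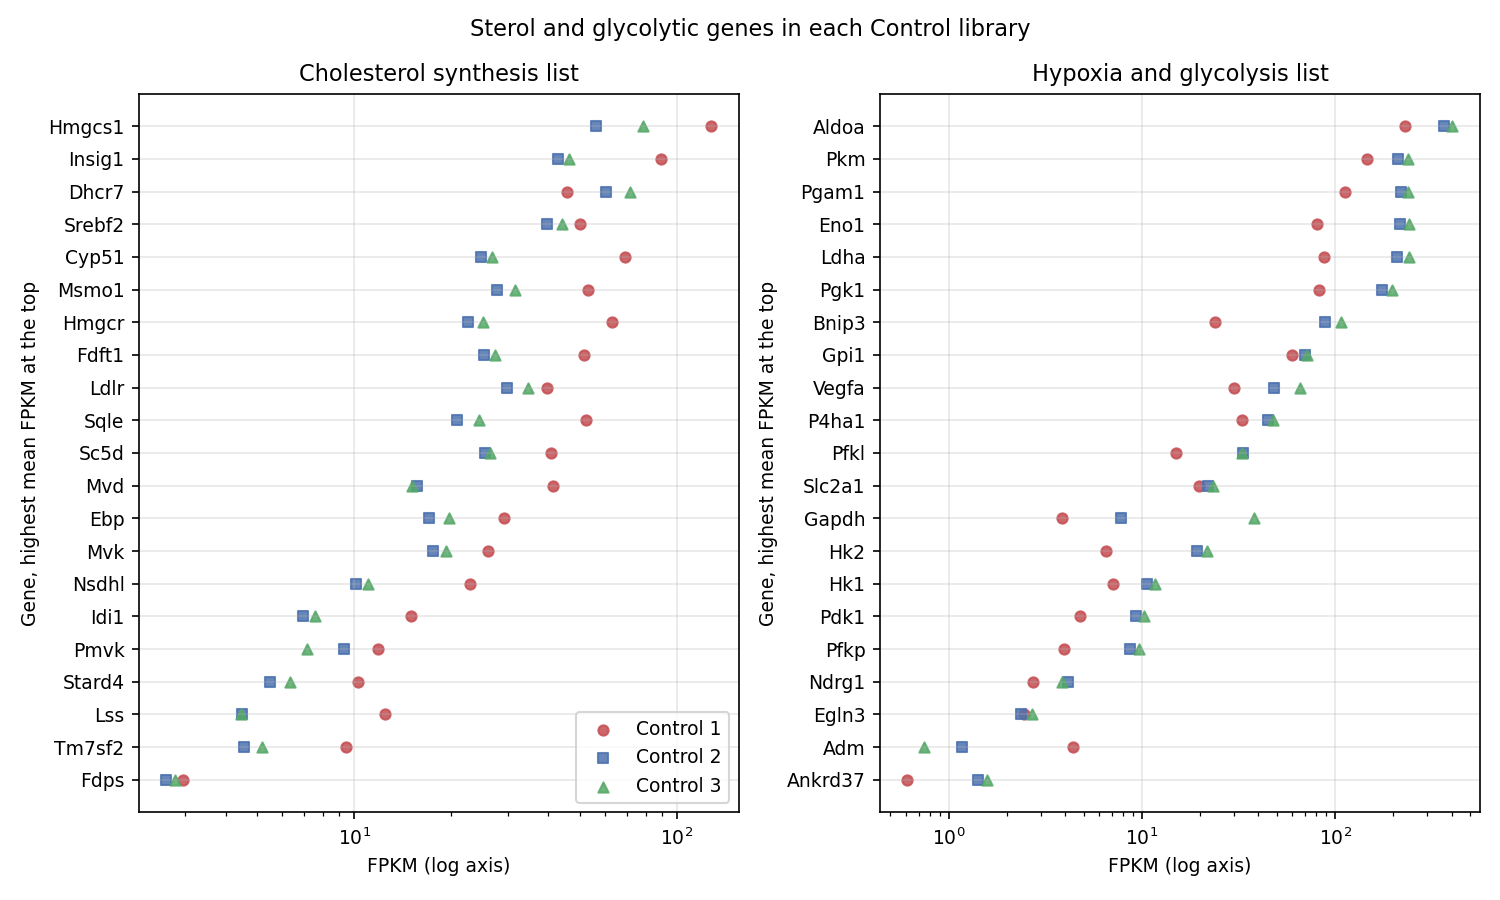
FPKM of 21 of the 22 members of the cholesterol synthesis list (left) and of the hypoxia and glycolysis list (right) in each Control library, on log axes with 1 point per library. Control 1 is the highest point for 20 of the 21 sterol genes drawn and the lowest for 19 of 21 glycolytic genes.

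Within steroid synthesis, Control 1 was high for some enzymes and low for others. Hsd17b7, an enzyme of both oestradiol and cholesterol synthesis, stood at 163, 10.7 and 13.3 FPKM and ranged most of the 15 members. Fdx1 and Fdxr, which pass electrons to Cyp11a1, stood at 196, 267 and 373 and 117, 198 and 219 FPKM, both lowest in Control 1. The list as a whole had a median difference of 0.07 in Control 1, near that of all genes.

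Control 1 was also the lowest library for the ovulation genes above the minimum. Of 14 genes of ovulation and cumulus expansion, 4 reached a mean of 1 FPKM, all 4 lowest in Control 1, beside 44.5% of all expressed genes, and 3 were at least 2-fold below both others, beside 1.79%. Adamts1, a protease of the ovulating follicle, stood at 21, 135 and 203 FPKM, Runx1 at 4.74, 24.9 and 27.8 FPKM, Edn2, endothelin-2, at 1.05, 7.97 and 14.9 FPKM and Btc, an EGF-like factor, at 0.691, 1.07 and 2.05 FPKM. Btc reached the minimum through Control 2 and 3. Ptgs2, the prostaglandin synthase of ovulation, stood at 0.167, 0.17 and 0.225 FPKM and Has2, which makes the hyaluronan of the cumulus, at 0.195, 0.105 and 0.0573 FPKM. Both were low in each library, and Has2 was highest in Control 1.

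Of 13 p53 targets, 11 reached 1 FPKM, 9 of them lowest in Control 1, beside 44.5% of all expressed genes. Cdkn1a, the cell cycle inhibitor p21, stood at 7.05, 30.4 and 40.7 FPKM, Trp53inp1, a p53 effector, at 18.6, 32.4 and 40.9 FPKM, Ccng1, cyclin G1, at 19.4, 31.2 and 40.3 FPKM and Mdm2, the ligase that degrades p53, at 10.7, 14.9 and 17.2 FPKM. Cdkn1a was the lowest of these in Control 1 and stood near Trp53inp1 and Ccng1 in Control 2 and 3. Plk2 and Perp went the other way, with 7.86, 2.13 and 2.66 and 12.5, 5.77 and 5.72 FPKM. Of the immediate early genes, Fosl2, Ier2, Jund and Myc had 71.1 ± 3.5, 53.9 ± 4.8, 53.3 ± 9.54 and 48.7 ± 8.42 FPKM. Egr1 and Nr4a1 stood at 86.5, 29.7 and 27.5 and 52.2, 13.6 and 12 FPKM, high in Control 1, and Jun stood at 17, 47.8 and 54.4 FPKM, low in it.

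Ribosomal proteins were highest in Control 1 for 76 of 82 members, and nuclear respiratory chain subunits for 61 of 80, beside 36.4% of all expressed genes. The sizes were small, with medians of 0.27 and 0.22 on the log2 scale. Rps27 at 171, 33.2 and 133 FPKM and Ndufa12, of complex I, at 35.3, 11.3 and 9.47 FPKM ranged most in the respective lists. Rps27 has a near-identical copy, Rps27rt, which stood at 90.3, 246 and 137 FPKM, highest where Rps27 was lowest.

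**Figure D5:**
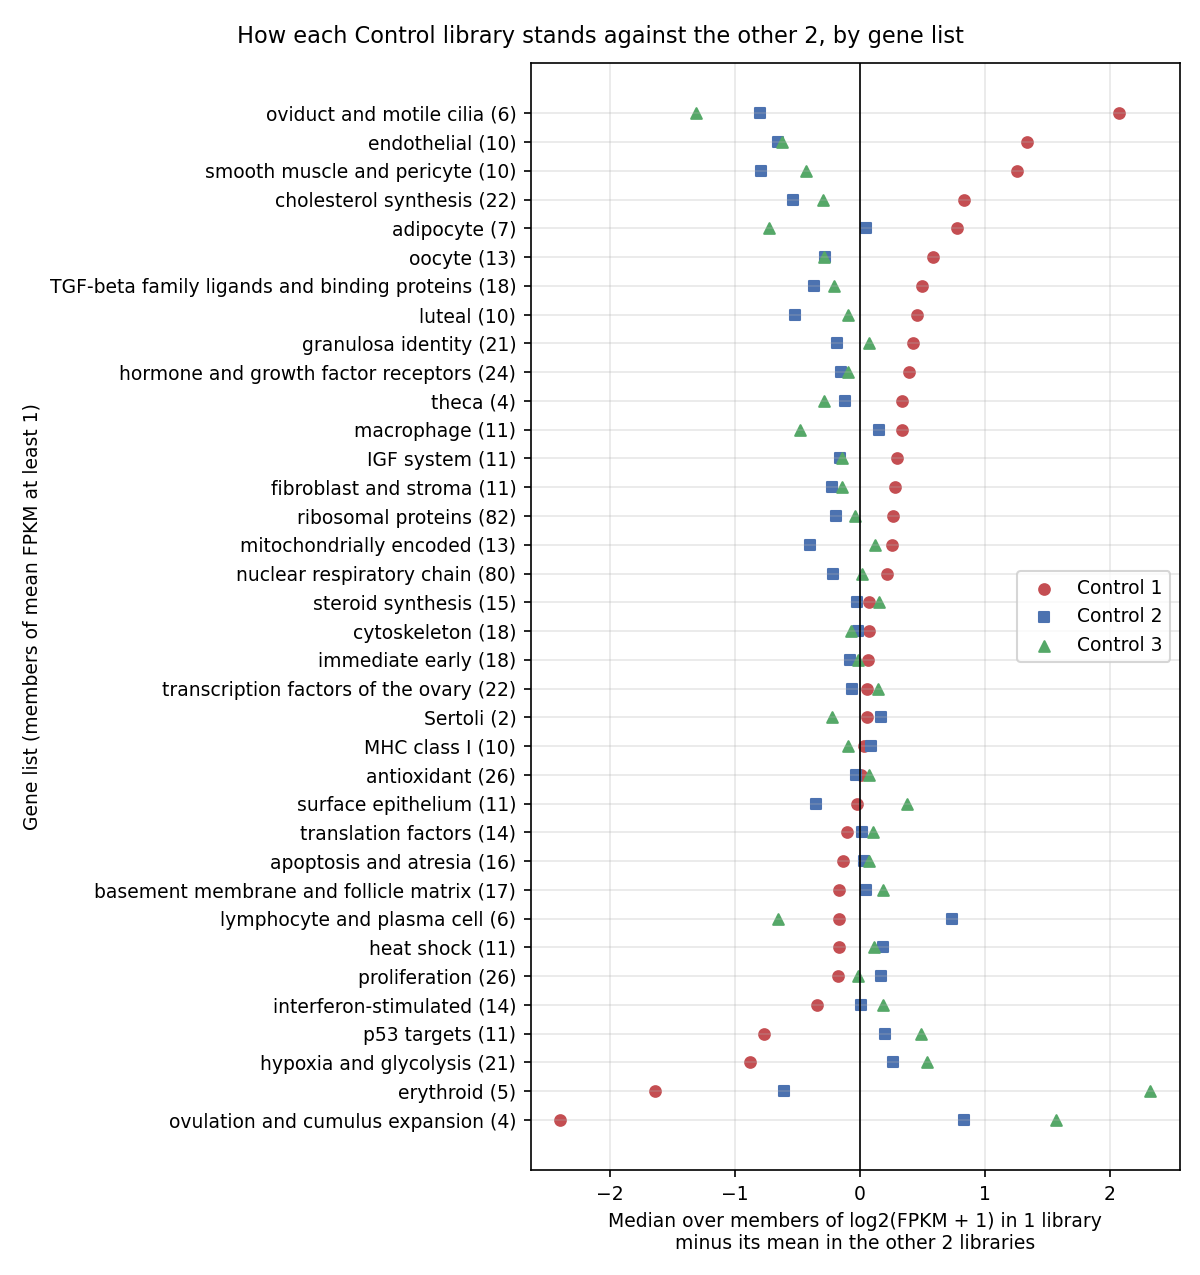
Median over the members of each gene list of log2(FPKM + 1) in 1 Control library minus its mean in the other 2, with 1 point per library and the number of members of mean FPKM at least 1 in brackets. Control 1 ranges from -2.40 for the ovulation list to 2.07 for the oviduct list, and Control 3 reaches 2.32 for the erythroid list.

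Single genes that set Control 1 apart, by the size of the gap to the nearer of the other libraries, included several that no list held. Ces2a, a carboxylesterase, stood at 36.3, 0.709 and 0.283 FPKM, Ltf, lactotransferrin, at 18.8, 0.436 and 0.158 FPKM and Serpina1e, an alpha-1 antitrypsin, at 15.5, 0 and 0.225 FPKM from 426, 0 and 6 reads. The other 3 of that rank were Hsd17b7, Ovgp1 and Cyp17a1. In the opposite direction, Spp1, osteopontin, stood at 2.93, 83.3 and 182 FPKM, Tinagl1, a matricellular protein, at 10.1, 105 and 150.5 FPKM, Cxcr4, a chemokine receptor, at 6.48, 51.1 and 68.1 FPKM and Ptgs1, cyclooxygenase-1, at 3.41, 25.7 and 39.7 FPKM. These joined Adamts1 and Mir503, the latter counted from only 2, 57 and 62 reads on its hairpin gene. Spp1 thus went from the level of 82 reads in Control 1 to 2463 and 4949 reads in the others.

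Control 3 stood apart by haemoglobin. Of 7 erythroid markers, 5 reached 1 FPKM, and all 5 were at least 2-fold above both others in Control 3, beside 0.301% of all genes. Hbb-bt and Hba-a2, the second beta and alpha copies, stood at 21.5, 29.1 and 163 and 18.6, 31.2 and 109 FPKM, and Alas2, the erythroid enzyme of haem synthesis, at 4.73, 8.35 and 29.5 FPKM. The membrane protein Slc4a1 stayed under 1 FPKM, at 0.0602, 0.057 and 0.434 FPKM. Globin copies share most of their sequence, so the split between copies is uncertain, while the summed list stood at 471, 796 and 3310.2 FPKM. The part of blood in other differences of Control 3 was not tested.

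Other genes that set Control 3 apart were few. Snord83b, a small nucleolar RNA, rested on 2, 4 and 23 reads, and Gapdh has been given. Ccn2, a matricellular growth factor, stood at 54.6, 19.7 and 5.17 FPKM, lowest in Control 3. Cables1, a partner of cyclin-dependent kinases, stood at 69.9, 37.1 and 15.9 FPKM. Tdrd5, a germ cell tudor protein, stood at 14.4, 13.9 and 5.41 FPKM and Ccdc3, a secreted protein, at 18.9, 14 and 5.11 FPKM. Of the exon bases of Ccdc3, Cables1 and Ccn2, 69.1, 34.2 and 23.2% are shared with another gene. Sumo2 and Ovgp1 completed the 6.

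Control 2 was lowest for most members of several lists. These included 67 of 82 ribosomal proteins, 66 of 80 respiratory chain subunits and 12 of 13 mitochondrially encoded genes, beside 28.1% of all expressed genes. The median differences of Control 2 were small, at -0.19, -0.21 and -0.40 on the log2 scale. It was highest for 18 of 26 proliferation genes, beside 29.9% of all expressed genes. The single genes that set Control 2 apart were of several kinds. Sumo2, a small modifier of proteins, stood at 14.4, 34.8 and 5.07 FPKM, C4b, a complement factor, at 5.47, 14.1 and 6.96 FPKM and Sgpp2, a phosphatase of sphingosine phosphate, at 6.46, 12.4 and 5.41 FPKM, all highest in Control 2. The others of that direction, Hmgb1-ps2, Rpl35a-ps3 and Rps27rt, are copies of other genes. On the low side stood Rps27, Rpl38 at 151, 59.1 and 137 FPKM, mt-Te at 99, 36.3 and 107 FPKM, mt-Atp8, Inhba and Ccn5, a matricellular protein, at 63.8, 16.7 and 35.7 FPKM. Sumo2 also has near-identical copies, and its level is uncertain.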

How the data were processed

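The authors deposited 1 table of FPKM values for 9 libraries, of which the 3 Control columns were read; all 9 columns matched a sample label. They came from the build GRCm39, with DESeq2 1.20.0, featureCounts 1.5.0-p3, HISAT2 2.0.5 and fastp 0.23.2 named per the submitters' processing notes; neither roles nor settings nor strandedness are given in the sources used here, so reads of overlapping or antisense genes cannot be told apart. GENCODE M21, an annotation of another build, gave symbols for 52125 of 56748 identifiers and exon lengths, and 213 expressed genes stayed without a symbol (1.01 to 1.1% of summed FPKM). It also showed that 4591 expressed genes share exon bases with another gene. Only some of the named genes are marked for this. Among those not marked, Jund shares 52.6%, Ftl1 34.6%, Tapbp 29.0% and Ovgp1 28.7% of its exon bases. Whole reads were recovered from FPKM times exon length, within 0.02 reads, for 12894 of the 13611 expressed genes (94.7%).

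Values were computed in Python 3.11.15 with pandas 2.3.3 and numpy 2.4.6. Genes of mean FPKM at least 1 were described on the log2(FPKM + 1) scale, which understates differences of low genes. A library was set against both others with a fold of 2. No test was run, and p-values are absent throughout. The calculation was tried on simulated data that held counting noise only, which is less than the spread of these libraries. That check covers the code, and it does not show how the counts of genes behave at the real spread. Named were Foxl2, Amh and Inha, the 30 most abundant genes, 4 members and the widest of each of 37 lists, 6 genes per library and direction with the largest gaps, and the 10 most even genes; others were chosen after their values were seen, and 2 list members are not reported here. The members and lists were chosen with earlier results of these data known. Alternatives covered the minimum level, the pseudocount, the fold, scaling, reads in place of FPKM, and each library left out.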

Additional observations from a re-analysis of the deposited data

How the results depend on the processing

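Counts of genes and shares moved with the settings, whereas directions mostly held. At a minimum of 5 FPKM, 8330 genes were detected. Without mitochondrially encoded genes in the sum, the first 10, 100 and 1000 genes held 6.44, 20.3 and 51.4% of FPKM, and ribosomal proteins 7.01%. In recovered reads the 3 shares were 7.34, 18.9 and 47.4%, with mitochondrially encoded genes at 5.13% and ribosomal proteins at 3.11%, since reads are not divided by gene length. The number of genes spread at least 2-fold was 1748 with a pseudocount of 0.1, 301 with a pseudocount of 5, 509 at a minimum of 5 FPKM and 167 with a fold of 4. Leaving out 1 library gave 202 to 863, the lowest without Control 1. Genes above and below both others were, with the pseudocount of 0.1, 414 and 400 in Control 1, 71 and 107 in Control 2 and 81 and 111 in Control 3. With the pseudocount of 5 they were 74 and 68, 3 and 4, and 11 and 5. At the minimum of 5 FPKM they were 115 and 138, 7 and 7, and 12 and 9. With the fold of 4 they were 34 and 20, 10 and 3, and 9 and 1. With no minimum, 97 genes stood above both others in Control 2 and 101 in Control 3. These counts have no value when a library is left out. With the pseudocount of 0.1, r was 0.92 between Control 1 and 2 and 0.916 between Control 1 and 3.

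Outside the ovulation list, 22 median differences of lists passed 0.5 in size on the log2 scale, a limit chosen after the values were seen. Of their 132 values under alternatives 3 turned direction, all for Control 2, and a further 24 kept it but moved by more than the SD among the list's genes. Its difference ran from -1.36 to 0.047 for endothelial genes, from -1.89 to 0.453 for oviduct and motile cilia genes and from -1.99 to 0.706 for erythroid genes, positive without Control 1 in the first 2 and without Control 3 in the last. None of the 22 turned under median ratio scaling or quantile normalization. The ovulation list, with 4 genes at 1 FPKM or more, also passed 0.5, at -2.40, 0.83 and 1.57 in Control 1, 2 and 3. It was not put through the alternatives. No paired analysis was possible because only 1 group was described. The depth limits genes under 3 FPKM, for which counting alone gives a coefficient of variation of 9.8% at a median of 104 reads.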
